A study of Mus musculus with 20 samples.

Results

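The macrophage genes described here are 43 genes of macrophage identity and activation, named in a list and found by symbol in the deposited gene table. All 43 carried values, out of 18012 genes with values in the table. None was chosen by its measured level, although the list was drawn up with earlier results of these data known. All 43 passed the filter on low counts in each fit, and every gene but Ccr2 had counts in each of the 20 libraries, Ccr2 being at 0 in 1 library of the 2D-2D group.

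The libraries came from lung of normal male C57BL/6 mice, with no chemical treatment and no genetic change named in the labels; the age of the mice is not given in the sources used here. Each group name gives the first and then the second culture. Cells of the 3D-3D group spent 4 days and then 2 more days after passage inside collagen hydrogels. The 2D-3D group spent 4 days on tissue culture plates and 2 days in hydrogels, the 3D-2D group the reverse, and the 2D-2D group both periods on plates. All 4 cultures began from whole collagenase digests of lung, so leukocytes of the lung could enter them. The Sort_Fib group was never cultured, and held the flow-through of the digest after paramagnetic particles had taken out cells carrying CD45, EpCam or CD31. Each group had 4 libraries, and nothing in the labels says that they came from separate mice or cultures, so each p-value is set against variation among libraries that may be no more than technical.

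Macrophages are phagocytes that take up particles, dying cells and lipid, and most tissues hold a resident population next to cells that derive from blood monocytes. Their lineage depends on the transcription factor PU.1 (Spi1) and on signals through the CSF1 receptor (Csf1r), whose ligands are made largely by stromal cells such as fibroblasts. In the lung, alveolar macrophages clear surfactant in the air spaces, and interstitial macrophages lie in the tissue beside fibroblasts and vessels. Fc receptors, complement C1q, scavenger receptors and the adaptors that carry ITAM signals serve recognition and uptake, while Arg1, Chil3, Cd86 and the NADPH oxidase subunits Cybb and Ncf1 are read as marks of activation.

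Cultured libraries held 19672131 to 20328936 counts and Sort_Fib libraries 11662526 to 13951804. Replicate 3 of 3D-3D was unlike its group for several members, so results that rest on it are also given without it. Levels are CPM scaled by TMM, a change is a log2 fold change ± SE, and a gene was called when edgeR's quasi-likelihood F test, adjusted by Benjamini-Hochberg over all genes tested, gave an adjusted p below 0.05. Values of 4 libraries are listed in the order of their replicate numbers, which have no other meaning, and ± beside a level is the SD over n = 4 libraries.

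PU.1, the lineage factor encoded by Spi1, is known to bind purine-rich sites before many myeloid genes. The upstream sequences of 5 of the genes whose levels the results turn on are therefore shown first. RefSeq promoters on GRCm38.p6 matched 32 of the 43 genes, with 40 promoters, and the 250 bases before each start were searched on both strands for GAGGAA, the core of the purine-rich sites that PU.1 binds. These letters were present in 21 of the 40 promoters (52.5%), against 7639 of all 32851 promoters of the same length (23.3%). Counted by gene, 18 of 32 genes (56.2%) had it in at least 1 promoter, against 25.9% of all genes. The longer GAGGAAGT, which contains the shorter motif, was present in 2 of the 40 (5.0%), against 2.44% of all. The sequences below are written 5′ to 3′ along the strand of the gene and end 1 base before its RefSeq start. Capitals mark GAGGAA or its complement TTCCTC. For C1qb the RefSeq start lies upstream of the gene position given below, which is from GENCODE and ends at chr4:136886187. The C1qb sequence is chr4:136886201-136886450, the Pf4 one chr5:90772185-90772434, the F13a1 one chr13:37050245-37050494, the Apoe one chr7:19699189-19699438 and the Chil3 one chr3:106167565-106167814; Pf4 lies on the plus strand and the others on the minus strand.
C1qb: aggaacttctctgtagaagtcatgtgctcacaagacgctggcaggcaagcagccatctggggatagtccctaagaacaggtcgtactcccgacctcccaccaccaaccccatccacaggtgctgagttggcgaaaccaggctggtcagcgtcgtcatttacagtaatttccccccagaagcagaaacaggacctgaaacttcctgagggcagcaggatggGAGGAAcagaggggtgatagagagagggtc
Pf4: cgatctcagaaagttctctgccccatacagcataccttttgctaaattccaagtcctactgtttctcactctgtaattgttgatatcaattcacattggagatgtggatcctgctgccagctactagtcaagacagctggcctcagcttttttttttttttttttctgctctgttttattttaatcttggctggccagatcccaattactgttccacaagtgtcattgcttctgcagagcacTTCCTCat
F13a1: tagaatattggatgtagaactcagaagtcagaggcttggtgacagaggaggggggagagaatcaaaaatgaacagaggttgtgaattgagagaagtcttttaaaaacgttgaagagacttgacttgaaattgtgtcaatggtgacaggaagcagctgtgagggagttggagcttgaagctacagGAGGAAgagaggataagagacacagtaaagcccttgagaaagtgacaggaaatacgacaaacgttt
Apoe: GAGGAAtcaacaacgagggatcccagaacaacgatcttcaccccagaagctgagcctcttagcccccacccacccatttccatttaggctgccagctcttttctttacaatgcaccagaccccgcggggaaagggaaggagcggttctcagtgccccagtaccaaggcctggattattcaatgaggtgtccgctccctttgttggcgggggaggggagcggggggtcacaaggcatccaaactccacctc
Chil3: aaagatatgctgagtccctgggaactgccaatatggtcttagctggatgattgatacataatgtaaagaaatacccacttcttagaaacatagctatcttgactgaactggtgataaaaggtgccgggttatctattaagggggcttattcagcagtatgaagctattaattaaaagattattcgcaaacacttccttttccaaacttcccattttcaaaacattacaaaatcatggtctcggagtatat
In the windows shown, C1qb, Pf4, F13a1 and Apoe each held the letters once, beginning 30, 8, 66 and 250 bases before the start. Chil3 did not hold them. Further promoters of F13a1 and Apoe are not shown. That of F13a1 lacked the letters, and those of Apoe differed in having them. Ms4a7 and Cx3cr1, also prominent below, lacked the letters in every window searched and are not shown. A match describes these letters and is neither a bound site nor a cause.

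Together the 43 genes made up a larger share of all counts in each culture that had seen hydrogel than in 2D-2D. In 3D-3D libraries they took 3.63%, 3.35%, 4.19% and 3.38% of the counts, and in 2D-3D libraries 4.32%, 4.87%, 4.75% and 4.70%. The share was 2.26%, 2.26%, 2.38% and 2.35% in 3D-2D libraries, against 1.46%, 1.34%, 1.23% and 1.37% in 2D-2D libraries. Sort_Fib libraries had 1.49%, 1.44%, 1.53% and 1.48%. The ranges of the 4 cultures did not overlap, and 2D-3D was highest. Lyz2 and Apoe alone gave a large part of it, and without them the means were 2.19% in 3D-3D, 2.44% in 2D-3D, 1.53% in 3D-2D, 0.870% in 2D-2D and 0.935% in Sort_Fib libraries, with 3D-3D and 2D-3D then overlapping. In RNA of whole samples, fewer macrophages and less macrophage RNA per cell cannot be told apart, and this holds for every level below.

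**Figure D1:**
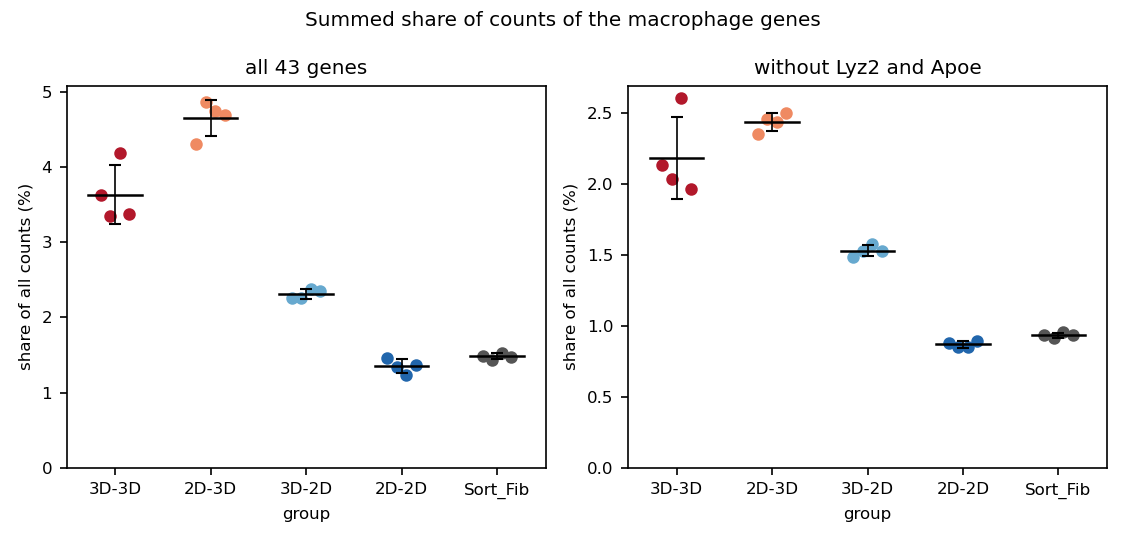
Share of all counts (%) taken by the 43 macrophage genes (left) and by the same genes without Lyz2 and Apoe (right) in each library of the 3D-3D, 2D-3D, 3D-2D, 2D-2D and Sort_Fib groups; points are libraries, the long bar is the mean and the whiskers are the SD (n = 4). The highest group is 2D-3D in both panels, at 4.66% and 2.44%.

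Cells kept in hydrogel throughout were first set against cells kept on plates throughout. In 3D-3D against 2D-2D, 38 of the 43 genes were higher and 2 lower, where 38.6% of all 13704 genes tested were called higher and 34.9% lower, and the median change was 1.08 for the members and 0.05 for all genes. Among members with a mean of at least 10 CPM in either group, the largest changes were those of Chil3 (5.23 ± 0.22), a secreted chitinase-like protein, F13a1 (3.44 ± 0.13), the transglutaminase subunit of clotting factor XIII, and Apoe (3.21 ± 0.11), the lipid carrier. Siglec1, the sialic acid receptor CD169, fell (-0.51 ± 0.14), as did Plac8 (-2.15 ± 0.14), a gene of monocytes. Laptm5 (-0.14), Itgax (-0.17) and Cd68 (0.06) did not pass the test. Lyz2 and Siglec1 were called although their libraries overlapped between the groups. Scaling by library size alone gave 7289 genes higher and 2996 lower in place of 5294 and 4784, with a median of 0.37 for all genes and 1.39 for the members; Cd68 was then called higher and Siglec1 was no longer called. Without the 3D-3D library of replicate 3, Laptm5 was called lower, at -0.40.

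A move to hydrogel after 4 days on plates was tested by 2D-3D against 2D-2D. Here 39 of the 43 genes rose and only Plac8 fell (-1.51 ± 0.14), where 36.5% of all genes tested were called higher and 34.7% lower. The median change was 1.44 for the members and 0.04 for all genes. Cx3cr1, the fractalkine receptor of monocytes and tissue macrophages, had the largest change of all members with at least 10 CPM in either group (4.72 ± 0.20). Apoe (3.63 ± 0.11), Ms4a7 (3.35 ± 0.15), a membrane protein of resident macrophages, and Chil3 (3.04 ± 0.21) came next. Marco (0.15), Siglec1 (0.18) and Laptm5 (0.35) did not pass the test, and their libraries overlapped between the groups. With library size alone, 6708 genes were higher and 3224 lower in place of 5005 and 4758, the median of all genes was 0.31, and all 3 were called higher.

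Hydrogel against plate as second culture after 4 days in hydrogel, 3D-3D against 3D-2D, gave a more divided result. Here the 3D-3D cells stayed in hydrogel and the 3D-2D cells were the ones moved, onto plates. Of the 43 genes, 23 rose and 8 fell, where 37.7% of all genes tested were called higher and 32.8% lower, so the higher share lay nearer to the background than after the plate. The median change was 0.33 for the members and 0.07 for all genes. Chil3 (3.40 ± 0.19), Apoe (2.09 ± 0.11) and Cd86 (1.49 ± 0.17), the costimulatory ligand, rose most among members with at least 10 CPM in either group. Siglec1 (-1.49 ± 0.14) and Plac8 (-1.25 ± 0.14) fell, and so did the integrin genes Itgax (-0.66 ± 0.15), Itgam (-0.52 ± 0.10) and Itgb2 (-0.39 ± 0.11), with Laptm5, Cd68 and Mrc1. This split depended on the scaling: library size alone gave 32 members higher and 5 lower, and 6774 genes higher and 3079 lower in place of 5168 and 4494, with a median of 0.30 for all genes, and Cd68, Itgb2 and Mrc1 were no longer called.

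**Figure D2:**
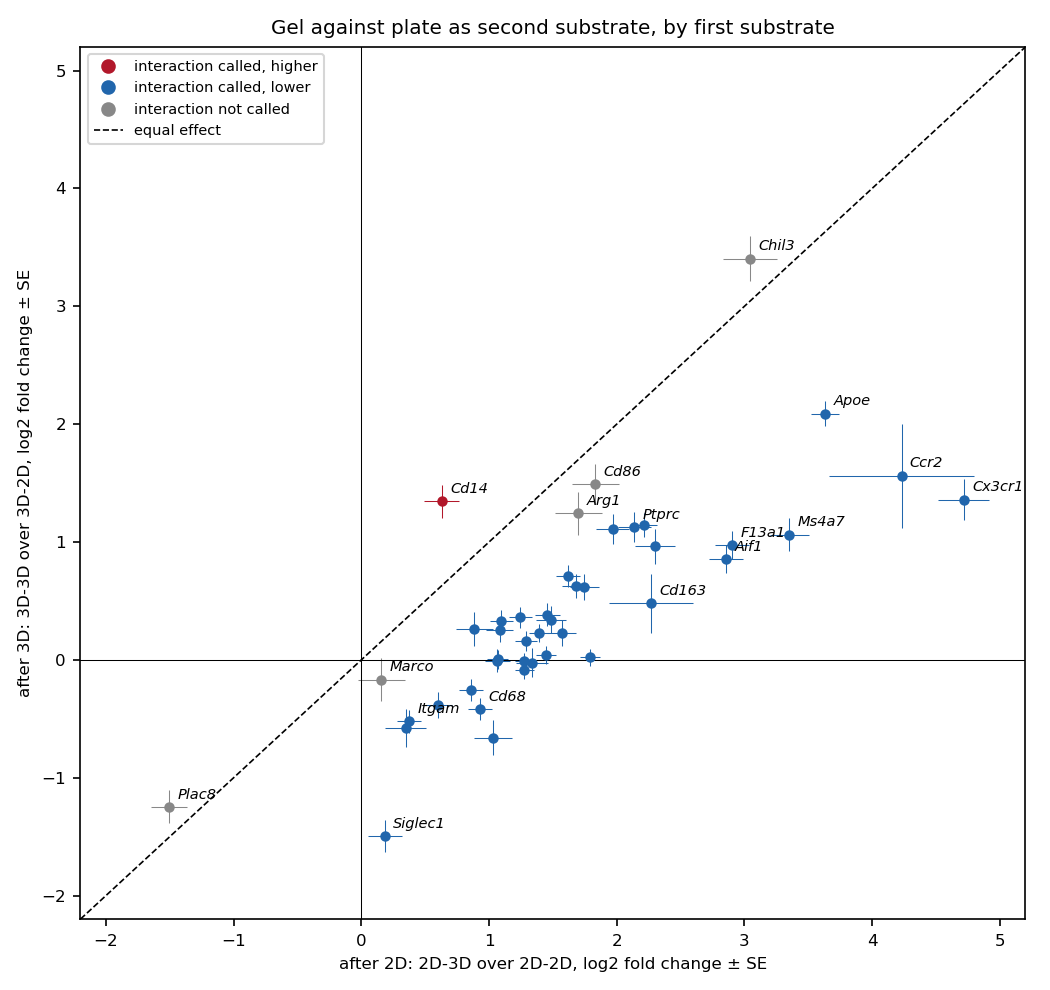
Log2 fold change ± SE of each of the 43 genes between hydrogel and plate as second culture, after a first culture on plates (2D-3D over 2D-2D, horizontal) and in hydrogel (3D-3D over 3D-2D, vertical); colours give the call of the interaction and the dashed line marks equal effects. Most points lie to the right of and below the line, and Cd14 is the only gene called above it, at 0.71.

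These pairs of groups share no library, so their calls can be set side by side. Of the 39 genes higher in hydrogel after the plate, 23 were also higher in hydrogel after hydrogel and 11 were not called there. The other 5 were lower (Cd68, Itgam, Itgax, Itgb2 and Mrc1). The same split was not counted over all genes, so it has no background to be set against. The interaction tested the difference itself, as the 3D-3D over 3D-2D change less the 2D-3D over 2D-2D change. It was called lower for 37 of the 43 genes and higher for Cd14, the lipopolysaccharide co-receptor, against 9.10% lower and 10.3% higher among all genes tested. Its median was -1.11 for the members and 0.03 for all genes. Cx3cr1 had the most negative value (-3.36 ± 0.27, edgeR adjusted p = 4.27e-08), followed by Ms4a7 (-2.29 ± 0.20), Aif1 (-1.999 ± 0.18) and F13a1 (-1.93 ± 0.17) among members with at least 10 CPM in a culture. Marco (-0.32), Chil3 (0.36), Arg1 (-0.45), Cd86 (-0.34) and Plac8 (0.26) were not called. Without the 3D-3D library of replicate 3, Arg1 was called lower, at -0.75, and 38 members were lower in all.

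The first culture was then compared with the second held the same. On plates, 3D-2D against 2D-2D, 39 of the 43 genes rose and 2 fell, where 9.74% of all genes tested were called higher and 10.6% lower. The median change was 0.80 for the members and -0.01 for all genes, and F13a1 (2.47 ± 0.13), Chil3 (1.82 ± 0.22) and Arg1 (1.54 ± 0.18) rose most among members with at least 10 CPM in either group. Plac8 fell (-0.90 ± 0.14). Cd14 was also called lower (-0.41 ± 0.14, edgeR adjusted p = 0.0428), but this call was lost, at -0.44 to -0.35, without any single one of the 8 libraries. Over the 344 member values recomputed without 1 library, 26 calls were lost and 3 gained. Besides Cd14, some of these fits lost the rises of Itgax (0.49 in the full fit), Cd86 (0.66), Trem2 (0.31) and Ccr2. Library size alone gave 1887 genes higher and 865 lower in place of 1335 and 1458.

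In hydrogel more members were lower than higher. In 3D-3D against 2D-3D, 5 of the 43 genes rose and 22 fell, where 15.0% of all genes tested were called higher and 12.7% lower, with a median of -0.41 for the members and -0.01 for all genes. Arg1 (1.09 ± 0.18), Chil3 (2.18 ± 0.18), Marco (0.94 ± 0.18), Cd163 (0.88 ± 0.25) and F13a1 (0.54 ± 0.12) rose. Cx3cr1 (-1.74 ± 0.15), Ms4a7 (-1.52 ± 0.14), Itgax (-1.21 ± 0.15) and Cd68 (-0.87 ± 0.09) fell most among members with at least 10 CPM in either group. Without the 3D-3D library of replicate 3, 26 members were lower, with Cybb, Fcer1g, Fcgr1 and Itgb2 added. Library size alone gave 2284 genes higher and 1386 lower in place of 2052 and 1741. With the second culture on plates, 39 genes were higher after a first culture in hydrogel. Of these, 20 were lower after it when the second culture was in hydrogel, 5 were higher and 14 were not called. This split was not counted over all genes either.

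**Figure D3:**
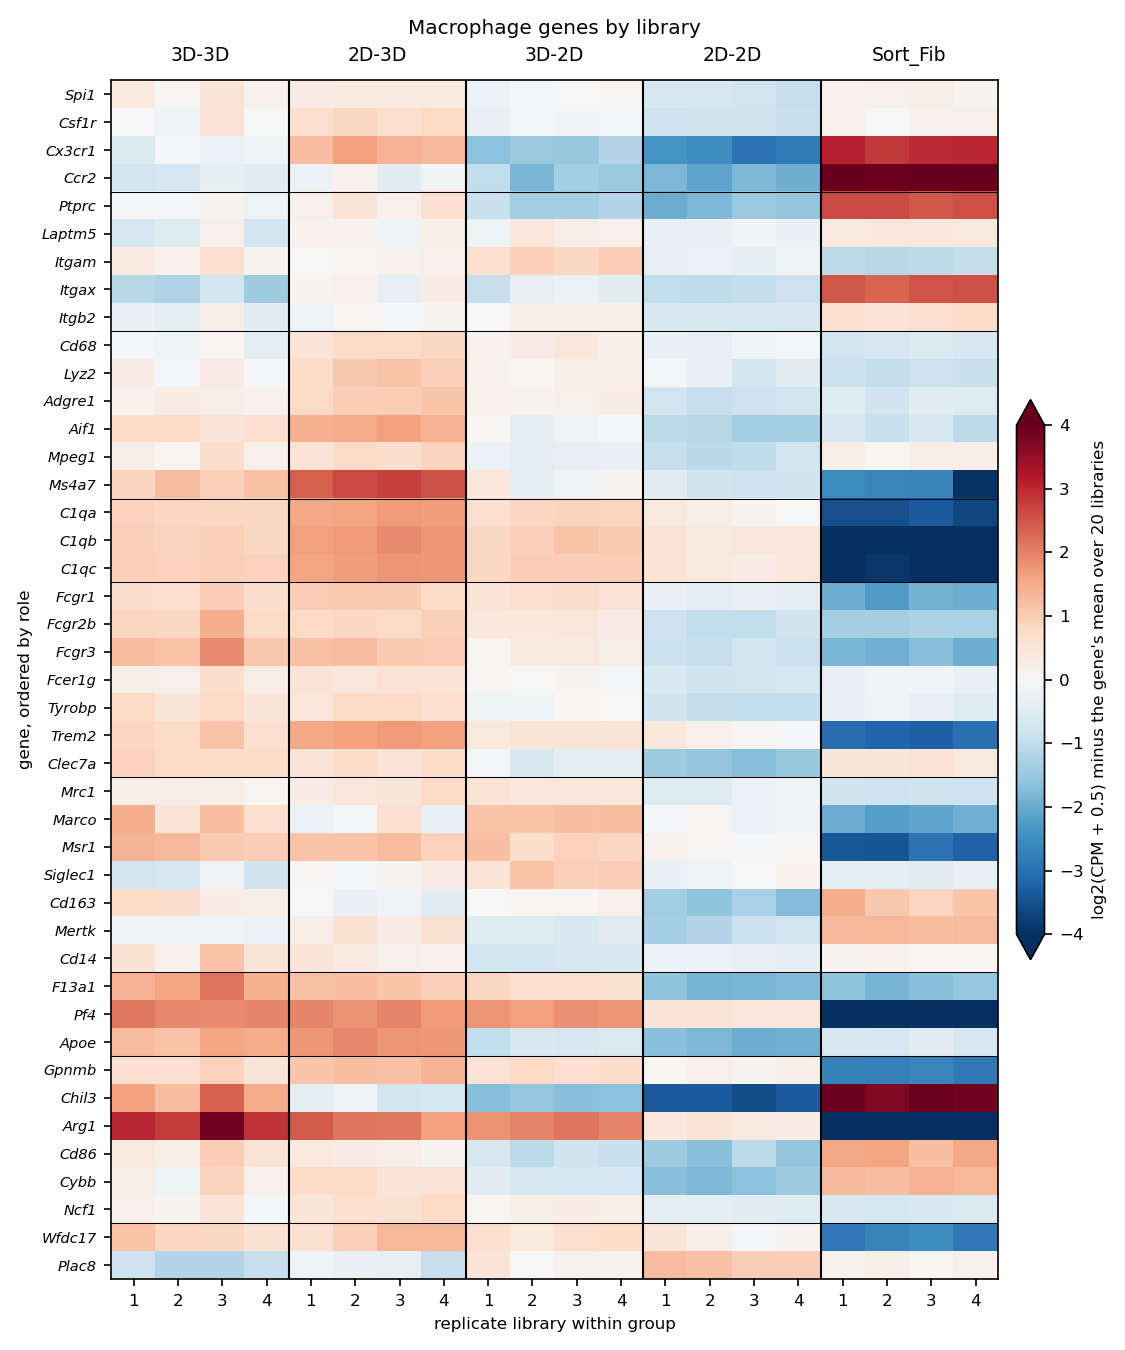
Level of each of the 43 genes in each of the 20 libraries, as log2(CPM + 0.5) less the mean of the gene over all libraries, with genes ordered by role and libraries by group and replicate. Colours are clipped at 4 and -4. Of the 4 cultures, 2D-2D is the lowest for 38 of the 43 rows, while the Sort_Fib columns hold rows far above and far below the mean.

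Ranked by mean level over the 4 cultures, 2D-3D was highest for 26 of the genes, 3D-3D for 11, 3D-2D for 5 and 2D-2D for Plac8 alone. The lowest culture was 2D-2D for 38 genes, 3D-3D for 4 and 3D-2D for Cd14. Set per kilobase of exon, so that genes can be compared with each other, Lyz2 had the highest level of the 43 in every group, at 5164 CPM per kb in 3D-3D, 9217 in 2D-3D, 5254 in 3D-2D, 3642 in 2D-2D and 2529 in Sort_Fib libraries. Apoe ranked next in 3D-3D (3118), 2D-3D (4132) and Sort_Fib libraries (787.7), and C1qb in 3D-2D (1705) and 2D-2D libraries (1179). Ccr2 was lowest in all 4 cultures, at 0.143 CPM per kb in 3D-3D, 0.216 in 2D-3D, 0.0477 in 3D-2D and 0.0107 in 2D-2D libraries, while Ms4a7 was lowest in Sort_Fib libraries (0.537).

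The lineage factor and the growth and homing receptors, 4 genes, all rose in 2D-3D against 2D-2D, and their interaction was called lower in each case, although the call for Ccr2 was lost without the 3D-2D library of replicate 1 (-2.25). Spi1 (chr2:91082390-91115756) had 397, 315, 437 and 339 CPM in 3D-3D libraries, 379, 390.0, 388 and 386 in 2D-3D and 259, 296, 307 and 317 in 3D-2D, against 193, 191, 178 and 160.1 in 2D-2D. Sort_Fib libraries had 338, 352, 360.0 and 324 CPM. The 2D-2D libraries were below all others, and those of 3D-3D overlapped with 2D-3D, 3D-2D and Sort_Fib. Its change was 1.03 ± 0.09 in 3D-3D and 1.10 ± 0.09 in 2D-3D against 2D-2D, and 0.33 ± 0.09 in 3D-3D against 3D-2D. Csf1r, the receptor through which CSF1 and IL-34 keep macrophages alive, averaged 473 ± 117 CPM in 3D-3D, 724 ± 47.8 in 2D-3D, 403 ± 31.6 in 3D-2D and 244 ± 6.39 in 2D-2D, and 480.1 ± 26.2 in Sort_Fib libraries. It rose in 2D-3D against 2D-2D (1.57 ± 0.11) and did not pass the test in 3D-3D against 3D-2D (0.23 ± 0.11, edgeR adjusted p = 0.0708), but was called there, at 0.31, without the 3D-3D library of replicate 2.

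Cx3cr1 was scarce in culture. Its level was 4.90, 6.93, 6.15 and 6.40 CPM in 3D-3D libraries, 17.8, 23.8, 20.3 and 18.9 in 2D-3D and 2.01, 2.28, 2.23 and 2.98 in 3D-2D, against 0.986, 0.914, 0.521 and 0.622 in 2D-2D. The 4 cultures did not overlap in any pair. Sort_Fib libraries had 65.6, 54.8, 61.6 and 63.3 CPM, above every culture, and the log2 fold change of 2D-3D, the highest culture, over Sort_Fib was -1.60 ± 0.11. Ccr2, the receptor that brings monocytes out of the blood, was almost absent in culture, at 0.747 to 1.17 CPM in 3D-3D, 1.10 to 1.91 in 2D-3D, 0.109 to 0.581 in 3D-2D and 0 to 0.116 CPM in 2D-2D libraries, the last from 0 to 2 counts each, so that no fold against 2D-2D is given. Sort_Fib libraries had 32.7 to 35.6 CPM of it. Its counts were not whole in 19 of the 20 libraries, and part of them may belong to a similar gene.

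Of 5 genes shared by most leukocytes, 4 rose in 2D-3D against 2D-2D, while 1 rose and 4 fell in 3D-3D against 3D-2D. Ptprc, which encodes CD45, had 61.1, 61.5, 70.97 and 56.2 CPM in 3D-3D libraries, 75.7, 95.9, 73.4 and 101 in 2D-3D and 34.7, 25.2, 25.2 and 28.98 in 3D-2D, against 16.1, 18.3, 22.8 and 21.4 in 2D-2D. Sort_Fib libraries had 409.5, 406, 371 and 393 CPM, the highest of all groups although these cells had passed a depletion for CD45. Ptprc rose in both hydrogel comparisons, by 2.14 ± 0.13 after the plate and 1.13 ± 0.13 after hydrogel. Itgam (CD11b) averaged 402 ± 67.6 CPM in 3D-3D, 344 ± 19.8 in 2D-3D, 577 ± 54.5 in 3D-2D, its highest level, 265 ± 16.3 in 2D-2D and 155 ± 7.22 in Sort_Fib libraries. Its partner chain Itgb2 (CD18) averaged 256 ± 59.5 CPM in 3D-3D, 287 ± 28.8 in 2D-3D, 334 ± 30.9 in 3D-2D, 189.8 ± 2.21 in 2D-2D and 464 ± 19.3 in Sort_Fib libraries. Itgax (CD11c), an integrin of alveolar macrophages and dendritic cells, was at 22.2 ± 4.86 CPM in 3D-3D, 50.9 ± 8.82 in 2D-3D, 35.1 ± 6.80 in 3D-2D and 24.9 ± 1.504 in 2D-2D, against 269 ± 18.4 in Sort_Fib libraries. Laptm5, a lysosomal membrane protein of blood cells, ranged over 546 to 1076 CPM in 3D-3D, 806 to 1112 in 2D-3D, 812 to 1255 in 3D-2D, 747 to 861 in 2D-2D and 1194 to 1267 in Sort_Fib libraries, and was not called in 3D-3D, 2D-3D or 3D-2D against 2D-2D. It became called higher without the 2D-3D library of replicate 3 in 2D-3D (0.43) and without the 3D-2D library of replicate 1 in 3D-2D (0.58).

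General macrophage markers were all higher in hydrogel after the plate. Adgre1, the F4/80 antigen, had 109.6, 123, 122 and 114 CPM in 3D-3D libraries, 172, 199, 199.7 and 217 in 2D-3D and 112, 111, 115 and 123 in 3D-2D, against 58.7, 52.9, 56.2 and 59.5 in 2D-2D. Its 3D-3D and 3D-2D libraries overlapped, and 2D-3D lay above all others. The change was 1.79 ± 0.08 in 2D-3D against 2D-2D and 0.02 ± 0.07 in 3D-3D against 3D-2D, with an interaction of -1.77 ± 0.11. Cd68, a lysosomal glycoprotein, had 856, 797, 952 and 698 CPM in 3D-3D, 1319, 1531, 1526 and 1607 in 2D-3D and 988, 1139, 1212 and 1069 in 3D-2D, against 745, 714, 829 and 852 in 2D-2D, and the 3D-3D and 2D-2D libraries overlapped. Lyz2, the lysozyme of myeloid cells, averaged 6795 ± 1024 CPM in 3D-3D, 12130 ± 1459 in 2D-3D, 6914 ± 444 in 3D-2D, 4793 ± 891 in 2D-2D and 3328 ± 128 in Sort_Fib libraries. Its values were not whole in any of the 20 libraries, so its level is uncertain where reads were divided with a similar gene.

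Aif1, Mpeg1 and Ms4a7 rose in hydrogel after both first cultures. Ms4a7 had 38.3, 50.1, 40.2 and 46.5 CPM in 3D-3D libraries, 109, 131, 138 and 122 in 2D-3D and 27.8, 15.7, 18.4 and 21.98 in 3D-2D, against 14.8, 11.5, 11.2 and 11.5 in 2D-2D and 3.07, 2.88, 2.76 and 0.859 in Sort_Fib libraries. No pair of these groups overlapped. It was higher by 3.35 ± 0.15 after the plate and by 1.06 ± 0.14 after hydrogel. Aif1 (IBA1), a calcium-binding protein of the macrophage cytoskeleton, averaged 15.5 ± 1.45 CPM in 3D-3D, 27.03 ± 2.27 in 2D-3D, 8.54 ± 1.14 in 3D-2D and 3.73 ± 0.521 in 2D-2D, and 5.22 ± 0.790 in Sort_Fib libraries. Mpeg1, the pore-forming protein perforin-2, averaged 672 ± 132 CPM in 3D-3D, 886 ± 75.9 in 2D-3D, 434 ± 15.97 in 3D-2D and 277 ± 27.5 in 2D-2D, and 622 ± 36.3 in Sort_Fib libraries.

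The 3 chains of complement C1q, which lie next to one another on chromosome 4 (C1qb chr4:136880129-136886187, C1qc chr4:136889804-136893065, C1qa chr4:136895917-136898803), changed together. C1q opens the classical complement pathway and is made in tissues mainly by macrophages. C1qb had 1800, 1734, 1808 and 1640 CPM in 3D-3D libraries, 2916, 3009, 3432 and 3073 in 2D-3D and 1662, 1802, 2034 and 1921 in 3D-2D, against 1371, 1219, 1270 and 1270 in 2D-2D. Only 52.5, 57.3, 57.7 and 46.7 CPM were found in Sort_Fib libraries. The 2D-3D libraries were highest, those of 3D-3D and 3D-2D overlapped, and both lay above 2D-2D. In 2D-3D against 2D-2D the chains rose by 1.44 ± 0.08 (C1qa), 1.28 ± 0.08 (C1qb) and 1.27 ± 0.07 (C1qc). None was called in 3D-3D against 3D-2D, where the values were 0.04 ± 0.08 (C1qa), -0.09 ± 0.08 (C1qb) and -0.01 ± 0.07 (C1qc). C1qa and C1qc were called higher there under library size alone, at 0.27 and 0.22, and C1qb was called lower, at -0.20, without the 3D-2D library of replicate 1. C1qa averaged 701 ± 16.6 CPM in 3D-3D, 1195 ± 65.2 in 2D-3D, 681 ± 50.4 in 3D-2D, 439 ± 49.9 in 2D-2D and 33.6 ± 3.06 in Sort_Fib libraries, and C1qc 959 ± 14.1, 1619 ± 82.6, 966 ± 45.4, 671 ± 46.97 and 31.2 ± 1.66 CPM in the same order. The ratio of C1qc to C1qb within a library was 0.550 ± 0.0173 in 3D-3D, 0.522 ± 0.0231 in 2D-3D, 0.522 ± 0.0255 in 3D-2D, 0.523 ± 0.0223 in 2D-2D and 0.585 ± 0.0341 in Sort_Fib libraries. That of C1qa to C1qb varied more between groups. It was 0.402 ± 0.01545 in 3D-3D, 0.385 ± 0.0131 in 2D-3D, 0.368 ± 0.0133 in 3D-2D, 0.342 ± 0.0341 in 2D-2D and 0.628 ± 0.0327 in Sort_Fib libraries. The ratio of C1qb to Ptprc, with no correction for length, was 28.1 ± 1.81 in 3D-3D, 36.8 ± 7.56 in 2D-3D, 66.6 ± 13.7 in 3D-2D and 66.7 ± 13.05 in 2D-2D libraries, against 0.136 ± 0.0161 in Sort_Fib libraries.

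Fc receptors and genes of ITAM signalling were all higher in each culture that had seen hydrogel than in 2D-2D. Fcgr3, an activating receptor for IgG, had 893, 835, 1395 and 805 CPM in 3D-3D libraries, 845, 885, 779.7 and 767 in 2D-3D and 396, 483, 499.7 and 441 in 3D-2D, against 209.5, 199, 221 and 208 in 2D-2D and 107, 98.6, 116 and 97.5 in Sort_Fib libraries. Its change in 3D-3D against 2D-2D was 2.22 ± 0.13, and 2.00 without the 3D-3D library of replicate 3. Fcgr2b, its inhibitory counterpart, averaged 334 ± 81.3 CPM in 3D-3D, 298 ± 16.4 in 2D-3D, 218 ± 10.3 in 3D-2D, 88.8 ± 5.99 in 2D-2D and 67.01 ± 1.85 in Sort_Fib libraries. The 2 genes lie close together on chromosome 1 and share sequence, and in all 20 libraries their values were not whole while their sum was, within 0.011 counts, so reads were divided between them. Their sum, which is free of that division, was 1316 ± 359 CPM in 3D-3D, 1117 ± 53.9 in 2D-3D, 672.5 ± 50.4 in 3D-2D, 298 ± 10.2 in 2D-2D and 172 ± 9.43 in Sort_Fib libraries. Fcgr1, the high-affinity IgG receptor, averaged 91.2 ± 10.1 CPM in 3D-3D, 104 ± 10.9 in 2D-3D, 81.4 ± 3.49 in 3D-2D, 42.5 ± 1.78 in 2D-2D and 12.8 ± 1.52 in Sort_Fib libraries, and rose after the plate (1.29 ± 0.09) with no call after hydrogel (0.16 ± 0.08).

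The adaptors that carry ITAM signals also rose in hydrogel after both first cultures. Tyrobp (DAP12) had 556, 456, 559 and 455 CPM in 3D-3D libraries, 439, 568, 564 and 519 in 2D-3D and 284, 290.3, 338 and 322 in 3D-2D, against 187, 167, 163 and 163 in 2D-2D and 269, 284, 260.5 and 232 in Sort_Fib libraries. The hydrogel groups overlapped each other and lay above both plate groups. Fcer1g, the common gamma chain of Fc receptors, averaged 892 ± 149 CPM in 3D-3D, 994 ± 39.4 in 2D-3D, 694 ± 39.6 in 3D-2D, 419 ± 23.6 in 2D-2D and 593 ± 38.6 in Sort_Fib libraries. Trem2, a lipid-sensing receptor that signals through DAP12, had 246, 227, 296 and 216 CPM in 3D-3D, 392, 408, 438 and 422 in 2D-3D and 176, 188, 191 and 199 in 3D-2D, against 180.3, 156, 141 and 128 in 2D-2D and 15.8, 14.5, 13.6 and 16.6 in Sort_Fib libraries. Trem2 was lower in 3D-3D than in 2D-3D without overlap (-0.77 ± 0.10), where Tyrobp was not called (-0.06 ± 0.09). Its rise in 3D-2D against 2D-2D (0.31 ± 0.10) was lost without any one of 6 of the 8 libraries, at 0.24 to 0.32. Clec7a (dectin-1), the receptor for fungal beta-glucan, had the largest rise of this set in 3D-3D against 2D-2D (2.33 ± 0.10), with means of 404 ± 27.6 CPM in 3D-3D, 369 ± 24.7 in 2D-3D and 182 ± 30.3 in 3D-2D, against 79.6 ± 6.27 in 2D-2D and 327 ± 15.99 in Sort_Fib libraries.

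**Figure D4:**
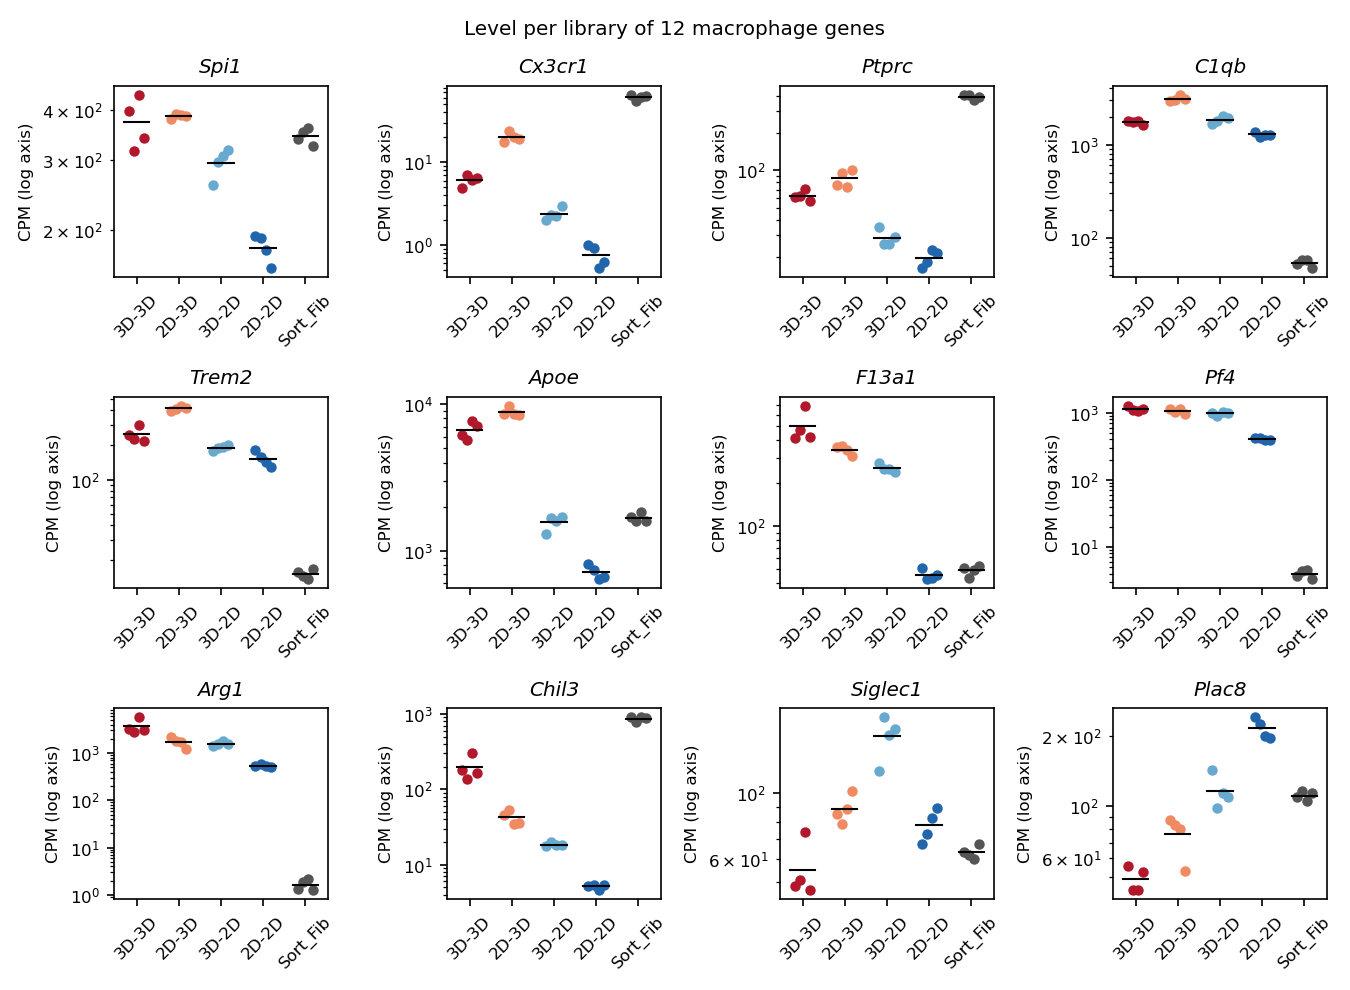
Level in CPM on a log axis of 12 of the genes in each library of the 5 groups; points are libraries and the bar is the mean of 4. Siglec1 is highest in 3D-2D and Plac8 in 2D-2D, Arg1 and F13a1 are highest in 3D-3D, and Ptprc, Cx3cr1 and Chil3 are highest in Sort_Fib libraries.

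Of 7 scavenger and clearance receptors, 5 rose and none fell in 2D-3D against 2D-2D, while 3 rose and 2 fell in 3D-3D against 3D-2D, shares near the 37.7% and 32.8% of all genes. Siglec1 had 48.6, 51.05, 74.05 and 46.9 CPM in 3D-3D libraries, 84.99, 78.8, 88.6 and 102 in 2D-3D and 118, 181, 157 and 165 in 3D-2D, against 67.5, 72.8, 82.1 and 89.2 in 2D-2D and 63.3, 61.8, 60.1 and 67.4 in Sort_Fib libraries. The 3D-2D libraries were above all others. It was higher in 3D-2D than in 2D-2D (0.98 ± 0.14) and lower in 3D-3D than in 3D-2D (-1.49 ± 0.14). Marco, a scavenger receptor for bacteria and particles, had 445, 228, 371 and 256 CPM in 3D-3D, 138, 157, 249 and 130.0 in 2D-3D and 352, 352, 368 and 388 in 3D-2D, against 157, 167, 138 and 144 in 2D-2D and 40.3, 34.8, 36.9 and 41.9 in Sort_Fib libraries. It was higher after hydrogel both in 3D-3D against 2D-3D (0.94 ± 0.18) and in 3D-2D against 2D-2D (1.26 ± 0.19), and was not called between hydrogel and plate as second culture. The 3D-3D and 2D-3D libraries overlapped. Msr1, the scavenger receptor SR-A, averaged 205 ± 26.2 CPM in 3D-3D, 196 ± 18.6 in 2D-3D, 172 ± 25.8 in 3D-2D, 92.8 ± 5.17 in 2D-2D and 9.06 ± 1.47 in Sort_Fib libraries, and its rise in 3D-3D against 3D-2D (0.26 ± 0.11) was lost without any one of 5 of the 8 libraries, at 0.18 to 0.25. Mrc1, the mannose receptor, averaged 292 ± 17.4 CPM in 3D-3D, 361 ± 50.6 in 2D-3D, 348 ± 11.9 in 3D-2D, 199 ± 24.4 in 2D-2D and 144 ± 1.71 in Sort_Fib libraries, and its fall in 3D-3D against 3D-2D (-0.26 ± 0.09) was lost without the 3D-3D library of replicate 4, at -0.22.

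The hydrogel change of Cd14 was larger after hydrogel than after the plate, the reverse of the other genes whose interaction was called. It had 340.1, 244, 489 and 311 CPM in 3D-3D libraries, 327, 285, 255 and 242 in 2D-3D and 130.0, 131, 139 and 144 in 3D-2D, against 187, 188, 175 and 167 in 2D-2D and 239, 242, 228 and 234 in Sort_Fib libraries. The hydrogel libraries lay above all those of plates, and 3D-2D was lowest of all. The hydrogel change was 0.63 ± 0.14 after the plate and 1.34 ± 0.14 after hydrogel. Mertk, the kinase receptor for dying cells, averaged 29.1 ± 1.03 CPM in 3D-3D, 44.95 ± 6.24 in 2D-3D, 22.96 ± 1.23 in 3D-2D and 16.1 ± 3.04 in 2D-2D, against 80.05 ± 2.82 in Sort_Fib libraries. Cd163, the receptor for haemoglobin complexes, was low throughout, at 2.07 to 3.13 CPM in 3D-3D, 1.12 to 1.67 in 2D-3D, 1.74 to 2.06 in 3D-2D, 0.170 to 0.405 in 2D-2D (3 to 7 counts a library) and 3.54 to 5.50 in Sort_Fib libraries.

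All 3 secreted products rose in hydrogel after both first cultures. Apoe had 6197, 5680, 7699 and 7088 CPM in 3D-3D libraries, 8512, 9768, 8639 and 8419 in 2D-3D and 1302, 1665, 1590 and 1715 in 3D-2D, against 808, 737, 639 and 669 in 2D-2D and 1690, 1607, 1847 and 1592 in Sort_Fib libraries. Both hydrogel groups lay far above both plate groups, and the hydrogel change was 3.63 ± 0.11 after the plate and 2.09 ± 0.11 after hydrogel. Fibroblasts and other lung cells can express Apoe as well. F13a1 had 414, 471, 692 and 421 CPM in 3D-3D libraries, 355, 360.3, 338 and 306 in 2D-3D and 276, 251, 249 and 239 in 3D-2D, against 50.6, 42.5, 43.3 and 45.4 in 2D-2D and 51.2, 43.3, 49.2 and 52.8 in Sort_Fib libraries. Its 2D-2D and Sort_Fib libraries overlapped, the others did not, and it was higher after a first culture in hydrogel both on plates (2.47 ± 0.13) and in hydrogel (0.54 ± 0.12, and 0.35 without the 3D-3D library of replicate 3).

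Pf4, platelet factor 4, is a chemokine of platelets that resident macrophages also express. Its level was 1275, 1118, 1080 and 1121 CPM in 3D-3D libraries, 1130, 1023, 1123 and 959 in 2D-3D and 1002, 902, 1040 and 987 in 3D-2D, against 414, 414, 396 and 394 in 2D-2D. Sort_Fib libraries held 3.69, 4.38, 4.53 and 3.28 CPM. The 3 cultures that had seen hydrogel lay close together, 2D-2D lay below them, and Sort_Fib lay far below every culture. The small difference in 3D-3D against 3D-2D (0.22 ± 0.08, edgeR adjusted p = 0.0124) was lost without the 3D-2D library of replicate 1 or 2 or the 3D-3D library of replicate 1, at 0.17 to 0.18.

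All 6 activation, oxidant and lysosomal genes rose in 2D-3D against 2D-2D, and 4 of them in 3D-3D against 3D-2D. Arg1 (chr10:24915221-24927484), the arginase read as a mark of alternative activation, had 3296, 2804, 5870 and 3015 CPM in 3D-3D libraries, 2220, 1788, 1739 and 1233 in 2D-3D and 1392, 1567, 1775 and 1575 in 3D-2D, against 538, 592, 523 and 499 in 2D-2D. Sort_Fib libraries had only 1.32, 1.83, 2.12 and 1.249 CPM. The 2D-3D and 3D-2D libraries overlapped, with 3D-3D above and 2D-2D below. Its changes were 2.79 ± 0.19 in 3D-3D against 2D-2D, 1.70 ± 0.19 in 2D-3D against 2D-2D, 1.24 ± 0.18 in 3D-3D against 3D-2D and 1.54 ± 0.18 in 3D-2D against 2D-2D. Without the 3D-3D library of replicate 3 it was 2.49 higher in 3D-3D than in 2D-2D and 0.95 higher than in 3D-2D. Chil3 (Ym1; chr3:106147554-106167564) had 179, 136, 304 and 165 CPM in 3D-3D libraries, 46.1, 53.4, 35.2 and 36.1 in 2D-3D and 17.6, 19.8, 18.1 and 18.4 in 3D-2D, against 5.28, 5.42, 4.57 and 5.43 in 2D-2D. No cultures overlapped, and Sort_Fib libraries, at 901, 773, 918 and 872 CPM, were above them all. Alveolar macrophages and neutrophils express Chil3.

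The costimulatory gene Cd86 had 10.97, 10.04, 16.8 and 12.1 CPM in 3D-3D libraries, 10.8, 10.2, 9.80 and 8.93 in 2D-3D and 5.13, 3.75, 4.57 and 4.23 in 3D-2D, against 2.78, 2.23, 3.70 and 2.43 in 2D-2D and 24.9, 25.5, 19.4 and 24.98 in Sort_Fib libraries. It was lowest on plates and highest before culture. Cybb, the catalytic subunit of the phagocyte NADPH oxidase, averaged 225 ± 73.00 CPM in 3D-3D, 282 ± 25.8 in 2D-3D, 115 ± 10.4 in 3D-2D and 57.1 ± 6.25 in 2D-2D, against 442 ± 21.8 in Sort_Fib libraries. Ncf1, a cytosolic subunit of the same enzyme, averaged 176 ± 31.3 CPM in 3D-3D, 238 ± 20.4 in 2D-3D, 176 ± 11.6 in 3D-2D, 114 ± 6.05 in 2D-2D and 98.4 ± 3.69 in Sort_Fib libraries. The ratio of Cybb to Ncf1 within a library was 1.27 ± 0.243 in 3D-3D, 1.19 ± 0.183 in 2D-3D, 0.659 ± 0.108 in 3D-2D and 0.506 ± 0.0819 in 2D-2D libraries, against 4.49 ± 0.148 in Sort_Fib libraries. Gpnmb, a lysosomal glycoprotein of lipid-laden macrophages, averaged 1992 ± 231 CPM in 3D-3D, 2835 ± 208 in 2D-3D, 1985 ± 131 in 3D-2D, 1354 ± 76.1 in 2D-2D and 184 ± 10.2 in Sort_Fib libraries. It did not pass the test in 3D-3D against 3D-2D (0.00 ± 0.08).

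The last 2 members behaved unlike each other. Plac8 had 55.6, 43.9, 43.8 and 52.2 CPM in 3D-3D libraries, 87.8, 82.8, 79.8 and 52.7 in 2D-3D and 142, 98.3, 114 and 109.6 in 3D-2D, against 241, 225, 200.1 and 196 in 2D-2D and 109, 116, 105 and 113 in Sort_Fib libraries. The 2D-2D libraries were above all others, and the hydrogel groups lay lowest. Wfdc17 averaged 208 ± 31.5 CPM in 3D-3D, 243 ± 55.5 in 2D-3D, 174 ± 16.1 in 3D-2D, 132 ± 20.6 in 2D-2D and 16.98 ± 2.19 in Sort_Fib libraries. It rose in 2D-3D against 2D-2D (0.88 ± 0.14). The interaction of Wfdc17 (-0.62 ± 0.20) was lost without any one of 9 of the 16 cultured libraries, at -0.63 to -0.53.

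Against uncultured cells, members were called in both directions, with some near no change. In 3D-3D against Sort_Fib 27 were higher and 12 lower, where 38.5% of all 14715 genes tested were called higher and 39.3% lower. In 2D-3D against Sort_Fib 28 were higher and 11 lower, with 38.2% and 39.9% of all genes. The counts were 25 higher and 15 lower in 3D-2D, with 38.1% and 45.8% of all genes, and 21 higher and 21 lower in 2D-2D, with 38.5% and 46.1%, a lower share near that of all genes. These 4 comparisons share the Sort_Fib libraries and are not independent. Arg1 was highest above Sort_Fib in each, by 11.15 ± 0.29 in 3D-3D, 10.05 ± 0.29 in 2D-3D, 9.90 ± 0.28 in 3D-2D and 8.35 ± 0.28 in 2D-2D. Pf4 came next, at 8.17 ± 0.11 in 3D-3D, 8.05 ± 0.11 in 2D-3D, 7.94 ± 0.11 in 3D-2D and 6.66 ± 0.11 in 2D-2D, and C1qb was at 5.03 ± 0.09, 5.86 ± 0.10, 5.11 ± 0.09 and 4.58 ± 0.09 in the same order.

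In each culture Ccr2, almost absent there, was farthest below Sort_Fib, at -5.14 in 3D-3D, -4.55 in 2D-3D and -6.70 in 3D-2D. No value is given for 2D-2D, where its counts were fewest. Ptprc, Chil3, Cx3cr1 and Itgax were also among the genes farthest below Sort_Fib. Over Sort_Fib, Ptprc had a log2 fold change of -2.66 ± 0.12 in 3D-3D, -2.19 ± 0.12 in 2D-3D, -3.79 ± 0.13 in 3D-2D and -4.33 ± 0.13 in 2D-2D. Chil3 had -2.14 ± 0.17 in 3D-3D, -4.34 ± 0.18 in 2D-3D, -5.55 ± 0.20 in 3D-2D and -7.38 ± 0.22 in 2D-2D. Csf1r (-0.02) and Siglec1 (-0.20) were not called in 3D-3D, but were called lower, at -0.21 and -0.37, without its library of replicate 3. Spi1 was not called against Sort_Fib in 3D-3D (0.11 ± 0.09, edgeR adjusted p = 0.235, and called at 0.19 without the 3D-3D library of replicate 2) and 2D-3D (0.17 ± 0.09, edgeR adjusted p = 0.0837, and called at 0.15 with only the 8 libraries of these groups in the fit), and was lower in 2D-2D (-0.93 ± 0.09). Under library size alone the 2D-2D split was 15 higher and 22 lower, with 4442 genes higher and 8026 lower in place of 5669 and 6787 and a median of -0.49 for all genes. The 3D-2D split was then 23 higher and 17 lower, with 4662 genes higher and 7678 lower in place of 5606 and 6740 and a median of -0.40.

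**Figure D5:**
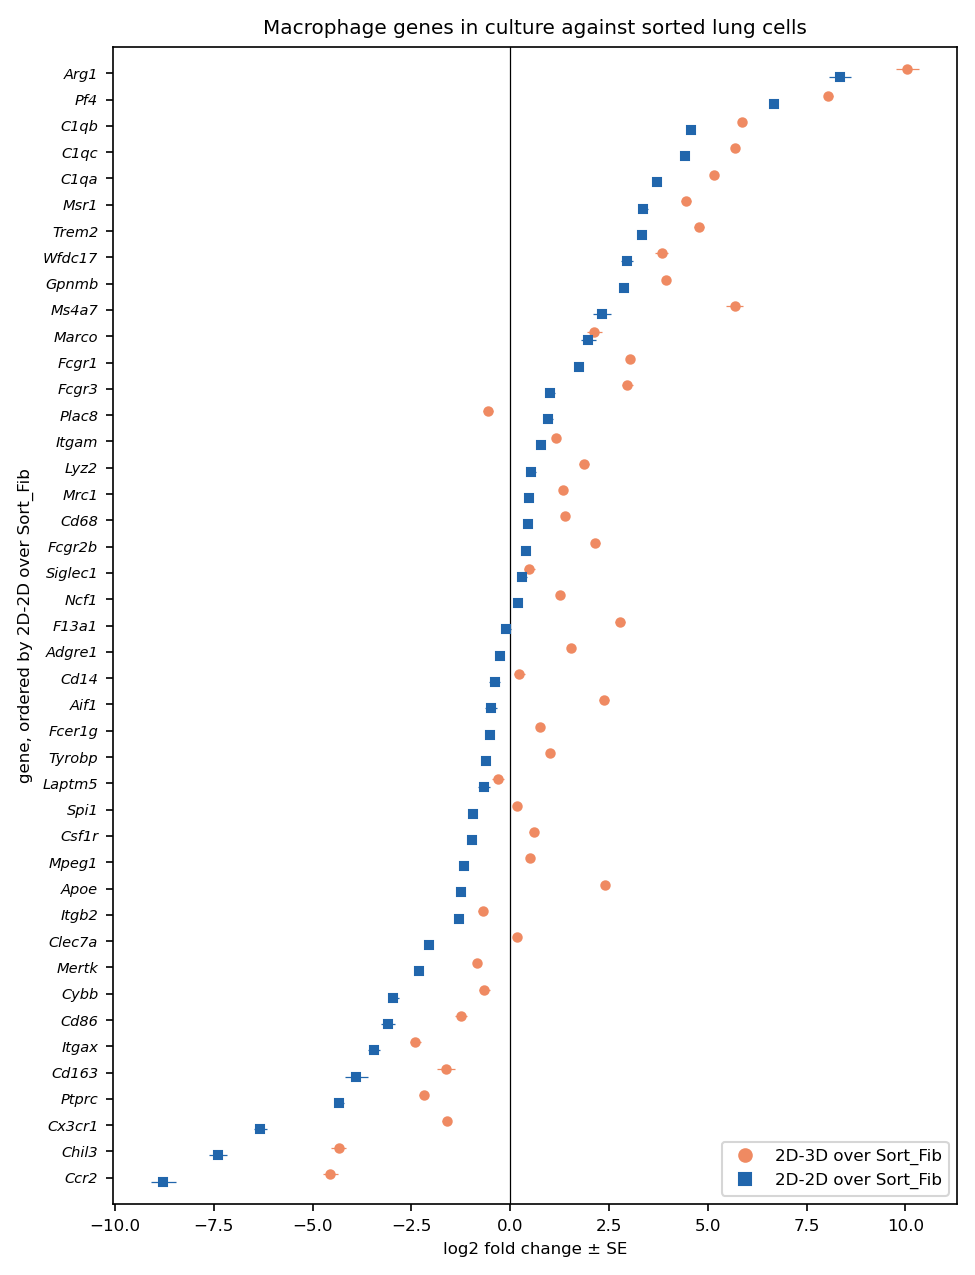
Log2 fold change ± SE of each of the 43 genes in 2D-3D (circles) and 2D-2D (squares) over Sort_Fib, ordered by the 2D-2D value. Arg1, Pf4 and the C1q chains are at the top, far to the right of 0, and Ccr2, Chil3 and Cx3cr1 at the bottom; 2D-3D lies to the right of 2D-2D for every gene but Plac8.

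A further 30 genes of macrophages and myeloid cells in general, not among the 43, were set beside them. For this and the next lists, the shares of all genes called higher and lower were 38.6% and 34.9% in 3D-3D against 2D-2D, 36.5% and 34.7% in 2D-3D against 2D-2D, and 37.7% and 32.8% in 3D-3D against 3D-2D. They were 15.0% and 12.7% in 3D-3D against 2D-3D, 9.74% and 10.6% in 3D-2D against 2D-2D, and 10.3% and 9.10% for the interaction. Against Sort_Fib they were 38.5% and 39.3% in 3D-3D, 38.2% and 39.9% in 2D-3D, 38.1% and 45.8% in 3D-2D, and 38.5% and 46.1% in 2D-2D. In 3D-3D against 2D-2D 28 were higher and none lower, and in 2D-3D against 2D-2D all 30 were higher. The counts were 18 higher and 6 lower in 3D-3D against 3D-2D, 1 higher and 16 lower in 3D-3D against 2D-3D, and 26 higher and none lower in 3D-2D against 2D-2D. The interaction was lower for all 30, with a median of -0.95. Ctss, the lysosomal protease cathepsin S, averaged 809.9 ± 133 CPM in 3D-3D, 781 ± 63.4 in 2D-3D, 318 ± 16.9 in 3D-2D and 157 ± 11.9 in 2D-2D, and rose by 2.31 ± 0.10 after the plate and 1.35 ± 0.09 after hydrogel. Lcp1, the leukocyte actin-bundling protein, rose by 0.77 ± 0.08 after the plate and was not called after hydrogel (-0.02 ± 0.07). Cyba and Sirpa were also higher after the plate (0.45 ± 0.10 and 0.96 ± 0.10) and not called after hydrogel (0.02 ± 0.10 and 0.09 ± 0.10).

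Genes that separate alveolar from interstitial macrophages gave a mixed picture. Of 12 alveolar genes, 10 were tested between cultures; 8 were higher in 3D-3D and 7 in 2D-3D than in 2D-2D, with none lower. Atp6v0d2, a proton pump subunit of osteoclasts and alveolar macrophages, averaged 185 ± 30.8 CPM in 3D-3D, 182 ± 26.4 in 2D-3D, 74.96 ± 5.69 in 3D-2D, 38.1 ± 4.96 in 2D-2D and 156 ± 10.5 in Sort_Fib libraries. All 12 alveolar genes were lower than Sort_Fib in 3D-2D and 2D-2D. In each hydrogel group 10 of 12 were lower and 1 was higher. Plet1 had 263.3 to 289.5 CPM in Sort_Fib, 44.36 to 68.04 in 3D-3D and 20.51 to 31.48 in 2D-3D libraries. Ear2 had 292.9 to 324.7, 15.66 to 30.85 and 12.85 to 25.36 CPM in the same order. Of 14 interstitial genes, 13 were tested between cultures, with 10 higher and 2 lower in 2D-3D against 2D-2D and 4 higher and 3 lower in 3D-3D against 3D-2D, where neither share exceeded that of all genes. Fcrls, an Fc receptor-like gene, averaged 37.5 ± 2.94 CPM in 3D-3D, 205 ± 23.4 in 2D-3D, 43.9 ± 3.27 in 3D-2D, 44.3 ± 6.54 in 2D-2D and 11.2 ± 2.33 in Sort_Fib libraries. Stab1, a scavenger receptor, averaged 206 ± 23.6 CPM in 3D-3D, 354 ± 82.3 in 2D-3D, 689.6 ± 99.7 in 3D-2D, its highest level, 289 ± 13.7 in 2D-2D and 73.2 ± 4.90 in Sort_Fib libraries. Fcrls and Stab1 were both lowest in Sort_Fib, unlike much of the list. Of the 14 genes, 6 were higher and 8 lower than Sort_Fib in 3D-3D and in 3D-2D. In 2D-3D 6 were higher and 7 lower, and in 2D-2D 3 were higher and 9 lower. Lyve1 had 112.8 to 116.6 CPM in Sort_Fib libraries and 0.2855 to 6.077 in cultured ones.

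Neither classical nor alternative activation genes moved as one set. Of 15 classical genes, 13 were tested between cultures; 7 were higher and 2 lower in 3D-3D, and 7 higher and 4 lower in 2D-3D, against 2D-2D. Ptgs2, the inducible cyclooxygenase, averaged 190.5 ± 24.04 CPM in 3D-3D, 38.9 ± 5.65 in 2D-3D, 271 ± 24.8 in 3D-2D and 160.1 ± 33.5 in 2D-2D, and fell in 2D-3D against 2D-2D (-2.04 ± 0.14). Of 12 alternative genes, 8 were tested, with 6 higher and 2 lower in 3D-3D and 5 higher and 2 lower in 2D-3D against 2D-2D. Mmp12, macrophage elastase, averaged 609 ± 169 CPM in 3D-3D, 1140 ± 164 in 2D-3D, 261 ± 28.96 in 3D-2D, 275 ± 27.9 in 2D-2D and 9.81 ± 1.93 in Sort_Fib libraries. Tgm2 and Il4ra fell in 2D-3D against 2D-2D (-0.72 ± 0.10 and -0.41 ± 0.11). Unlike Mmp12, most genes of both lists were lower in culture than in Sort_Fib. Of 11 alternative genes tested there, 8 were lower in 3D-3D and 2D-2D and 9 in 2D-3D and 3D-2D. At most 3 were higher. Of 15 classical genes, 11 were lower in 3D-3D and 3D-2D, 14 in 2D-3D and 12 in 2D-2D, and at most 2 were higher. Genes of lipid handling and the phagocyte lysosome, 16 in all, were all higher in 2D-3D than in 2D-2D; 11 were higher and none lower in 3D-3D against 2D-2D. Among them Ctsb averaged 7578 ± 392 CPM in 3D-3D, 12710 ± 1184 in 2D-3D, 5602 ± 163 in 3D-2D and 4565 ± 231 in 2D-2D, and Spp1, osteopontin, 2768 ± 186, 3523 ± 422, 1219 ± 167 and 1570 ± 78.8 CPM in the same order. Fibroblasts express several of these genes as well.

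Ligands of the macrophage receptors were divided. Csf1, a ligand of Csf1r, had 282, 269.5, 259 and 269 CPM in 3D-3D libraries, 264, 219, 199 and 220.0 in 2D-3D and 1166, 1346, 1351 and 1470 in 3D-2D, against 1571, 1744, 1900 and 1838 in 2D-2D and 168, 155, 169.6 and 180.1 in Sort_Fib libraries. The hydrogel groups and Sort_Fib lay far below both plate groups, with a change of -2.97 ± 0.09 in 2D-3D against 2D-2D and -2.30 ± 0.09 in 3D-3D against 3D-2D. Ccl2, the ligand of Ccr2, averaged 205 ± 86.2 CPM in 3D-3D, 201 ± 28.7 in 2D-3D, 608 ± 126 in 3D-2D, 387 ± 13.5 in 2D-2D and 41.03 ± 3.77 in Sort_Fib libraries, and fell in 2D-3D against 2D-2D (-0.94 ± 0.21) and in 3D-3D against 3D-2D (-1.57 ± 0.21). Ccl7, another ligand of Ccr2, fell with it (-0.63 ± 0.25 and -1.13 ± 0.25). Gas6, a ligand of Mertk, averaged 96.95 ± 13.5 CPM in 3D-3D, 373 ± 69.3 in 2D-3D, 165 ± 10.4 in 3D-2D and 148 ± 12.97 in 2D-2D, and rose in 2D-3D against 2D-2D (1.33 ± 0.12) while it fell in 3D-3D against 3D-2D (-0.77 ± 0.12). Over the 12 ligands, 9 of them tested, 4 were higher and 5 lower in 2D-3D against 2D-2D, and 4 higher and 5 lower in 3D-3D against 3D-2D. Of all genes tested, 36.5% were higher and 34.7% lower in the first comparison, and 37.7% and 32.8% in the second.

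Markers of other cell types moved as well, and their part in these results was not tested. Neutrophil markers (12 genes) took 0.0357 to 0.0630% of counts in 3D-3D, 0.0210 to 0.0246% in 2D-3D, 0.0298 to 0.0366% in 3D-2D, 0.0112 to 0.0148% in 2D-2D and 0.0698 to 0.0761% in Sort_Fib libraries. In the cultures Mmp8 gave most of this share, at 334 ± 86.97 CPM in 3D-3D, 182 ± 17.4 in 2D-3D, 322 ± 24.5 in 3D-2D and 132 ± 17.3 in 2D-2D, against 20.9 ± 1.55 in Sort_Fib libraries. Csf3r, the G-CSF receptor, was instead below Sort_Fib in every culture, at 39.2 ± 11.2 CPM in 3D-3D, 32.6 ± 5.43 in 2D-3D, 14.5 ± 1.16 in 3D-2D and 4.13 ± 0.439 in 2D-2D, against 330.1 ± 7.62 in Sort_Fib libraries. Of 11 neutrophil genes tested, 7 were lower than Sort_Fib in 3D-3D and 8 in each other culture, against 39.3% to 46.1% of all genes. Between cultures, 6 of 7 tested neutrophil genes were higher in 3D-3D than in 3D-2D, and 3 of 7 in 2D-3D than in 2D-2D. Of all genes, 37.7% and 36.5% were higher in these comparisons. Lymphocyte markers (14 genes) took 0.00703 to 0.0104% in 3D-3D, 0.00366 to 0.00440% in 2D-3D, 0.00159 to 0.00190% in 3D-2D, 0.000773 to 0.00108% in 2D-2D and 0.0817 to 0.0911% in Sort_Fib libraries, with 7 of the 14 at 0 in every 2D-2D library and 5 in every 2D-3D library. Dendritic cell markers (8 genes) took at most 0.00127% in any culture and 0.0147 to 0.0156% in Sort_Fib libraries. Mast cell and basophil markers (9 genes with values) took at most 0.00672% in any culture and 0.0290 to 0.0322% in Sort_Fib libraries. The 43 macrophage genes exceeded each of these shares in every library. A summed share depends on how many and which genes are listed, so this does not compare numbers of cells. Fibroblast markers (8 genes) took 1.01 to 1.28% in 3D-3D, 1.37 to 1.71% in 2D-3D, 0.652 to 0.823% in 3D-2D, 1.34 to 1.72% in 2D-2D and 0.935 to 1.01% in Sort_Fib libraries. Endothelial markers (8 genes) took 0.00657 to 0.00963% in 3D-3D, 0.00222 to 0.00276% in 2D-3D, 0.000892 to 0.00110% in 3D-2D, 0.000802 to 0.000895% in 2D-2D and 0.210 to 0.226% in Sort_Fib libraries. Epithelial markers (8 genes) took 0.0211 to 0.0473% in 3D-3D, 0.00167 to 0.00297% in 2D-3D, 0.00538 to 0.0122% in 3D-2D, 0.000951 to 0.00142% in 2D-2D and 0.201 to 0.239% in Sort_Fib libraries. In 3D-3D against 3D-2D, all 8 endothelial genes and all 6 epithelial genes tested were higher, with median changes of 3.26 and 2.70, where the median of the macrophage genes was 0.33. In 2D-3D against 2D-2D, 7 of 8 endothelial and 3 of 6 epithelial genes were higher, where 36.5% of all genes were. Their medians were 1.58 and 0.28, where that of the macrophage genes was 1.44.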

How the data were processed

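RNA of 20 mouse lung libraries in 5 groups of 4 was analysed. The authors deposited one table of estimated counts per gene, unnormalised, of which 5.98% were not whole (tolerance 1e-06). HISAT, Bowtie2 and GRCm38.p6 are named per the submitters' processing notes; the sources used here give neither their versions nor the counting program or its use of strand. Of 67228 rows, 18012 genes held values, and 5 columns of group averages were not used.

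Counts were rounded, filtered (filterByExpr, minimum count 10), scaled by TMM and tested with edgeR 4.0.16 (R 4.3.3) by quasi-likelihood F tests, two-sided, with Benjamini-Hochberg adjustment over all genes tested. Comparisons between cultures used the 16 cultured libraries (13704 genes tested), and those with Sort_Fib all 20 (14715). Samples were grouped by their labels. Totals of 11662526 to 20328936 counts a library limit the precision of Ccr2 and Cd163 most. The members and companion lists were chosen with earlier results of these data known. Every member is named with a level, and full values are given for those with the largest called changes in each role. Alternatives were other scalings and filters, DESeq2 1.42.0, other libraries in the fit, a replicate block and leaving out each library. Gene positions are from GENCODE vM21 on GRCm38.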

Additional observations from a re-analysis of the deposited data

Results flagged for a closer look

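In 17 of 215 groups of 4 member levels, 1 library lay far from the other 3, where chance alone flags about 1 group in 20. The 3D-3D library of replicate 3 was the distant one for 7 genes and lay above the other 3 each time. It had 645.5 CPM of Csf1r (others 387.0 to 431.1), 106.1 of Fcgr1 (84.27 to 87.23), 455.5 of Fcgr2b (284.4 to 300.4) and 1395 of Fcgr3 (804.7 to 893.3). It also had 1114 CPM of Fcer1g (795.6 to 831.8), 74.05 of Siglec1 (46.94 to 51.05) and 5870 of Arg1 (2804 to 3296). The 3D-3D library of replicate 1 was high for Clec7a, at 445.3 CPM (388.0 to 394.1).

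Among 2D-3D libraries, replicate 2 was high for Apoe, at 9768 CPM (8419 to 8639), and replicate 4 low for Fcgr1, at 87.93 CPM (107.6 to 111.4). The 3D-2D library of replicate 1 was low for Itgb2, at 288.2 CPM (348.8 to 350.6), and for C1qc, at 898.1 CPM (981.5 to 996.9), and high for Mrc1, at 365.7 CPM (341.6 to 342.5). The 2D-2D library of replicate 1 was high for Ms4a7, at 14.79 CPM (11.16 to 11.54). In Sort_Fib, Mpeg1 was low in replicate 2, at 567.3 CPM (635.9 to 644.5), Ms4a7 in replicate 4, at 0.8588 CPM (2.759 to 3.066), and Cd86 in replicate 3, at 19.38 CPM (24.87 to 25.52).

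The change between hydrogel and plate as second culture differed with the first culture for 38 genes, by the interaction tested in edgeR's quasi-likelihood fit (log2, the change after hydrogel less the change after the plate). Cd14 was the one positive value, at 0.71. For the lineage factor and growth or homing receptors set, it was -0.76 (Spi1), -1.34 (Csf1r), -3.36 (Cx3cr1) and -2.67 (Ccr2). For the leukocyte-wide surface and adhesion genes set, it was -1.01 (Ptprc), -0.92 (Laptm5), -0.90 (Itgam), -1.69 (Itgax) and -0.98 (Itgb2). For the general macrophage markers set, it was -1.35 (Cd68), -1.37 (Lyz2), -1.77 (Adgre1), -1.999 (Aif1), -1.05 (Mpeg1) and -2.29 (Ms4a7). For the C1q chains set, it was -1.40 (C1qa), -1.36 (C1qb) and -1.28 (C1qc). For the Fc receptors and ITAM signalling set, it was -1.13 (Fcgr1), -1.13 (Fcgr2b), -0.86 (Fcgr3), -0.89 (Fcer1g), -0.91 (Tyrobp), -1.07 (Trem2) and -1.07 (Clec7a). For the scavenger and clearance receptors set, it was -1.11 (Mrc1), -0.83 (Msr1), -1.68 (Siglec1), -1.79 (Cd163) and -1.14 (Mertk). For the resident macrophage secreted genes set, it was -1.93 (F13a1), -1.17 (Pf4) and -1.54 (Apoe). For the activation, oxidant and lysosomal genes set, it was -1.06 (Gpnmb), -1.34 (Cybb) and -1.07 (Ncf1). For the monocyte-associated genes set, it was -0.62 (Wfdc17). The Ccr2 and Cd163 values rest on few counts in 2D-2D libraries, 0 to 2 and 3 to 7 counts a library, and depend on the prior count of the fit.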

How the results depend on the processing

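Over 27 other settings, 6794 gene values were recomputed. Of these, 6647 stayed on the same side of the threshold, 94 lost the call, 47 gained one and 6 reversed. A reversal was counted only where the value was called in the main fit or in the other setting. The direction of values called in neither was not compared. All 6 reversals came with scaling by library size alone: C1qc (0.22) and Ncf1 (0.22) in 3D-3D against 3D-2D, Fcer1g (-0.0169) and Tyrobp (-0.0084) in 3D-2D against Sort_Fib, and Siglec1 (-0.0210) and Ncf1 (-0.1193) in 2D-2D against Sort_Fib. Of the 215 mean levels of a member in a group, that scaling moved 98 by over 1 SD and left 117 within 1 SD. It left 1 member lower in 3D-3D against 2D-2D, 5 lower in 3D-3D against 3D-2D and 1 lower in 3D-2D against 2D-2D. DESeq2's size factors (RLE) also left 1 lower in 3D-2D against 2D-2D, as did leaving out any 1 library. Without 1 library, members lower were 2 to 3 in 3D-3D against 2D-2D, 7 to 9 in 3D-3D against 3D-2D and 20 to 26 in 3D-3D against 2D-3D, and the interaction was lower for 36 to 38. The cause was not tested.

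A replicate block gave 38 members higher and 2 lower in 3D-3D against 2D-2D, 40 and 1 in 2D-3D against 2D-2D, and 38 and 2 in 3D-2D against 2D-2D. Libraries with the same number did not deviate together (mean correlation -0.003, against 0.001 for other numbers), and 3 of 16 correlated best with their own number, so the numbers were not treated as pairs. Depth limits Ccr2 and Cd163 in 2D-2D most. The sources used here do not name the counting program, so the division of reads between Fcgr2b and Fcgr3 cannot be checked beyond their sum.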
